A study of Mus musculus with 109 samples.

Results

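The BCL2 family in the retina was followed through 10 members: Bax, Bak1, Bcl2, Bcl2l1, Mcl1, Bbc3, Bcl2l11, Hrk, Pmaip1 and Bid. They were chosen by gene symbol, and all 10 were found among the 37315 genes of the count table. Bulk RNA-seq libraries came from 109 retinas, 1 per eye, of 64 mice aged 2 to 4 months, and 45 mice gave both eyes. Wild-type (WT, C57BL/6J) eyes of batch 1 received PBS, the vehicle (n = 31), TNF (n = 8), IL1A, labelled IL1 (n = 9), or both cytokines, IL1A+TNF (n = 10), and retinas were taken at day 2. Further WT eyes of batch 1 received PBS or TNF and were taken at day 14 (n = 7 and 6) or day 35 (n = 6 and 9). Batch 2 held WT eyes with PBS (n = 5) or IL1A+TNF (n = 6) and Sarm1-deficient eyes (Sarm.KO) with PBS (n = 6) or IL1A+TNF (n = 6), all at day 2. Sarm1 encodes an NAD-cleaving enzyme of axon degeneration. Most PBS retinas were the fellow eyes of cytokine-treated mice: of 31 day 2 controls of batch 1, 7 faced an IL1A eye, 8 an IL1A+TNF eye and 8 a TNF eye. The day 2 comparisons of batch 1 share these controls.

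BCL2 family proteins control the permeability of the outer mitochondrial membrane. BAX and BAK1 form the pores that release cytochrome c, BCL2, BCL2L1 (BCL-xL) and MCL1 hold them in check, and the BH3-only proteins PUMA (Bbc3), BIM (Bcl2l11), HRK, NOXA (Pmaip1) and BID promote death by binding the guardians or by activating the pore formers. In retinal ganglion cells (RGCs), the output neurons of the retina, death after axonal injury depends on BAX. These libraries measured RNA of whole retinas, so fewer cells of a type and less RNA per cell cannot be told apart. Whether counting used strand is not given in the sources used here, so reads of Bcl2, Bak1 and Bid could not be separated from those of D630008O14Rik, Ggnbp1 and Bcl2l13, which overlap them on the opposite strand.

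The retinas carried 30014757 to 79064488 counts (median 39374202). All 10 genes passed the filter on low counts in every comparison. In Sarm.KO retinas with PBS, Sarm1 RNA was 0.375 times the WT level. Among 6 Sarm.KO retinas with IL1A+TNF, replicates 4 and 5 stood apart: summed CPM (counts scaled to a common library size) of 12 RGC markers were 175 and 152, against 398 to 850 in the other 4, and their median correlations with their own group, 0.956 and 0.953, were the lowest of all 109 retinas. Replicate 1 of that group had RGC and leukocyte marker sums of 850 and 122, against 821 and 99.7 in the PBS eye of the same mouse. Results that rest on these libraries are given with and without them.

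In WT retinas with PBS at day 2 the guardians Mcl1 and Bcl2l1 were the most abundant members per length, while the guardian Bcl2 lay below both pore formers. In RPKM, CPM divided by exon length in kilobases, Mcl1 had a median level of 32.5 and Bcl2l1 of 13.2, followed by Bax at 9.09 and Bak1 at 4.22. Bcl2l11 at 3.01 and Bcl2 at 2.92 did not differ beyond their spread (SDs of 0.255 and 0.407, n = 31). The other BH3-only genes were low, with Bbc3 at 1.08 and Bid at 0.956, which also overlapped, Pmaip1 at 0.421 and Hrk at 0.232.

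The promoters of 3 members are shown because they hold the letters of an NF-kB site (GGG, any 2 bases, TTTCC, on either strand), the factor best known for answering IL1A and TNF. RefSeq start sites on GRCm38.p6 gave 14 promoter windows for 9 of 10 members (all but Pmaip1), and the windows of Bbc3, Bcl2l1 and Mcl1 with a match are printed as the 250 bases before the start, with the match in capitals. The first lies at chr7:16309333-16309582 on the plus strand, the second at chr2:152830718-152830967 on the minus strand and the third at chr3:95658471-95658720 on the plus strand.
Bbc3: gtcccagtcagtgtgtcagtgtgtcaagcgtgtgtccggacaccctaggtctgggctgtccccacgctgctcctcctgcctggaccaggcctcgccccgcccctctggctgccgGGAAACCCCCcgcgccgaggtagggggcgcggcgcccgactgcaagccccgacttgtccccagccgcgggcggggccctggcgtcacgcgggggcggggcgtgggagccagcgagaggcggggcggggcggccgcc
Bcl2l1: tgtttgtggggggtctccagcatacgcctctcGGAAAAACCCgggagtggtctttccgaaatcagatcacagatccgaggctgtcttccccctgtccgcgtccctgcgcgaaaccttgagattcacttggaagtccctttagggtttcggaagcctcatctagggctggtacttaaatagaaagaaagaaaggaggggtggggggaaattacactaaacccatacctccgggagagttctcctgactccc
Mcl1: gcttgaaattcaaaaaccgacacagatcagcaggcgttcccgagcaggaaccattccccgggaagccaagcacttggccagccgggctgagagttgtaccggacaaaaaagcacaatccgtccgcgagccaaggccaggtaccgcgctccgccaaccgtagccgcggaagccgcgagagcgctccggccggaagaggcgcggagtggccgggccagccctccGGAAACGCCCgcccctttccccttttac
The same letters occurred in 1.63% of all 32851 promoter windows. A FOXO site (TGTTTAC, held by 3.65% of windows) was found in another Bbc3 window and in 1 of Bcl2l11, and an ATF4 and CHOP composite site (TGATGNAA, 3.97%) in that of Hrk. No member window held an AP-1 site (TGANTCA, 7.81%) or the interferon-stimulated response element (TTTC, any 2 bases, TTTC, 3.44%). A match is a description of letters only.

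To ask what both cytokines together did to the family, IL1A+TNF retinas were compared with PBS retinas at day 2 in batch 1. At a Benjamini-Hochberg adjusted p under 0.05 in limma, 8 of 10 members were higher, 1 was lower and 1 did not pass, where 50.5% of all 19548 genes tested were called (25% higher and 25.5% lower). The median log2 fold change of the 10 members was 0.44 and that of all genes tested was -0.02. Both pore formers, all BH3-only genes but Hrk, and the guardians Mcl1 and Bcl2l1 were on the higher side, and the guardian Bcl2 was the member on the lower side.

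Pmaip1 had the largest change of the family. PBS retinas ranged from 0.606 to 2.62 CPM (median 1.15) and IL1A+TNF retinas from 2.78 to 8.11 CPM (median 5.72). The groups did not overlap, which held for 2.5% of all genes. The fold was 4.55 (log2 2.19 ± 0.154 SE, adjusted p = 8.42e-18, limma), and the treated eye was higher in 8 of 8 mice with both eyes sequenced. Mcl1 ranged from 86.5 to 134 CPM (median 111) with PBS and from 136 to 229 CPM (median 171) with IL1A+TNF, again with no overlap, and rose 1.57-fold (adjusted p = 1.43e-13).

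The other BH3-only genes moved less. Bbc3 had 1.29 to 3.12 CPM (median 2.29) with PBS and 2.07 to 4.68 CPM (median 4.1) with IL1A+TNF, and 7 of 10 treated retinas lay above every control (1.53-fold, adjusted p = 6.82e-08). Bid rose 1.49-fold (adjusted p = 1.78e-08), from a median of 3.4 to 5.14 CPM, and Bcl2l11 rose 1.33-fold (adjusted p = 1.89e-10), from 24.2 to 33.1 CPM, with 9 of 10 treated retinas above all controls. Hrk had medians of 1.32 and 1.55 CPM, and every treated retina lay within the control range (log2 0.19, 95% interval -0.07 to 0.44, adjusted p = 0.227).

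Of the pore formers, Bak1 rose 1.39-fold (adjusted p = 3.37e-10), from 8.45 to 12.4 CPM (median 10.2) with PBS to 11.8 to 21.7 CPM (median 14.2). Bax rose 1.22-fold (adjusted p = 5.79e-07), from medians of 14.3 to 17.5 CPM, and 2 of 10 treated retinas lay above the control range. Bcl2 ranged from 22.6 to 37.4 CPM (median 26.8) with PBS and from 16.6 to 24.6 CPM (median 18.6) with IL1A+TNF (0.698 times, adjusted p = 6.69e-10), and all 8 mice with both eyes had less Bcl2 in the treated eye. Bcl2l1 had medians of 60.6 and 63.5 CPM (1.07-fold, adjusted p = 0.0259). Its call was lost without IL1A+TNF replicate 2 (log2 0.05, adjusted p = 0.168) or without replicate 3 (0.09, 0.051). It was also lost with upper quartile scaling (0.07, 0.0724) and with mouse as a fixed factor (0.10, 0.0849). Replicate 2 had the highest neutrophil, leukocyte and monocyte marker sums of the group and the lowest RGC, bipolar and cone sums.

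Cell type markers moved with these values. Summed CPM of 6 leukocyte markers was 28.4 to 103 (median 49.6) with PBS and 158 to 494 (median 228.5) with IL1A+TNF, and all 6 rose; 6 of 7 neutrophil markers tested and 6 of 7 monocyte markers rose as well. All 7 rod and all 6 cone markers fell, as did 11 of 12 RGC markers, whose sum had medians of 890.2 and 716.6 CPM. Astrocyte marker sums (4 genes, 3 higher and 1 lower) had medians of 125.9 and 305.5 CPM, and microglia marker sums (8 genes, 5 higher and 2 lower) 87.5 and 145.4 CPM. T cell markers summed to at most 2.12 CPM with IL1A+TNF. The part of these cells in the members' changes was not tested.

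**Figure D1:**
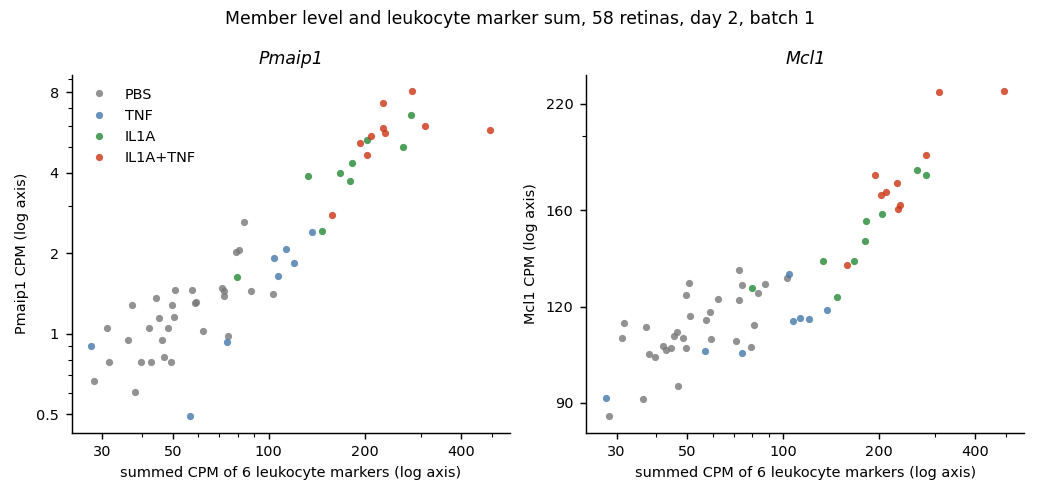
Each point is 1 WT retina of batch 1 at day 2 (58 in all), coloured by treatment, with the summed CPM of 6 leukocyte markers on a horizontal log axis and the CPM of Pmaip1 (left) or Mcl1 (right) on a vertical log axis. Both members rose along the leukocyte sum, with Pearson r of 0.928 for Pmaip1 and 0.902 for Mcl1.

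Over these 58 retinas, which share treatment and library preparation, log2 Pmaip1 correlated with the leukocyte sum at r = 0.928, and at 0.743 after group means were removed. For Mcl1 the values were 0.902 and 0.748, and for Bak1 0.867 and 0.725. Other marker sums gave like values: Mcl1 correlated with the astrocyte sum at 0.888 and 0.702, and Pmaip1 with the microglia sum at 0.848 and 0.607. Bbc3 gave 0.661 and 0.333, and within groups it ran more closely against the cone (r = -0.651), rod (-0.628) and amacrine sums (-0.565). This was not particular to Bbc3. Within groups Mcl1 ran against the bipolar (-0.685) and cone sums (-0.679), Bak1 against the bipolar sum (-0.697), and Pmaip1 against the cone sum (-0.424). Bcl2 followed the rod sum at 0.555 within groups. The genes most like Pmaip1 were Ptpn6, Ncf1 (both r = 0.941) and Laptm5 (0.937), and the nearest to Mcl1 were Glipr2, Zfp36 and Susd6 (0.952, 0.950 and 0.949). Bak1 was nearest to the actin gene Actb (0.934) and Pfn1 (0.933), and Bcl2l1 to the translation genes Eef1g (0.875), Rps7 and Rpl8 (both 0.858). Bbc3 was nearest to Oas1b (0.847), Akt2 (0.845) and Bst2 (0.842), and within groups to Oas1b (0.707), the stress factor Atf3 (0.696) and Bst2 (0.695). For Hrk the nearest gene over all 58 retinas was Med23, at 0.57.

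IL1A alone was compared with PBS to separate its share of this response. At the same threshold 7 members passed and all 7 were higher, where 21.4% of all genes were called (12% higher and 9.44% lower). Pmaip1 ranged from 1.63 to 6.58 CPM (median 3.98) and rose 3.36-fold (adjusted p = 7.15e-12), with 7 of 9 retinas above every control. Mcl1 rose 1.33-fold (adjusted p = 8.42e-07), from 123.5 to 180.7 CPM (median 145.9), again with 7 of 9 above the controls. Bcl2l11 (1.22-fold), Bbc3 (1.23), Bak1 (1.21), Bid (1.21) and Bax (1.12) made up the rest. Bcl2 had a median of 24.4 CPM and fell short of the threshold (log2 -0.17, adjusted p = 0.0561), and Bcl2l1 (log2 -0.01) and Hrk (-0.10) did not pass. With mouse as a fixed factor 4 members passed, Bcl2 among them (log2 -0.25, adjusted p = 0.0219), while Bax, Bak1, Bbc3 and Bid did not. Marker sums moved with IL1A too, with medians of 180.4 CPM for leukocytes (49.6 with PBS), 154.1 for neutrophils (15.7) and 466.5 for monocytes (144.5), and their part in these changes was not tested.

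TNF alone called no member at day 2 (limma), where 0.491% of all genes were called. At an unadjusted p under 0.05 there were 0 members, and edgeR and DESeq2 called 0 each. The largest estimate was Pmaip1 (log2 0.27, 95% interval -0.21 to 0.75), which ranged from 0.491 to 2.41 CPM (median 1.74) within the span of the controls but for 1 retina below it. Bcl2l11 was next (log2 0.11, interval -0.00 to 0.22). The leukocyte sum had a median of 105.7 CPM in these retinas, with a range of 27.8 to 137.4. It was lowest in TNF replicates 6 (27.8 CPM) and 3 (56.8), beside a PBS median of 49.6. Pmaip1 was 0.898 CPM in replicate 6 and 0.491 in replicate 3. Without replicate 6, 419 genes were called in place of 96, and leaving out any 1 TNF retina called 0 members. Whether these retinas responded less was not tested.

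**Figure D2:**
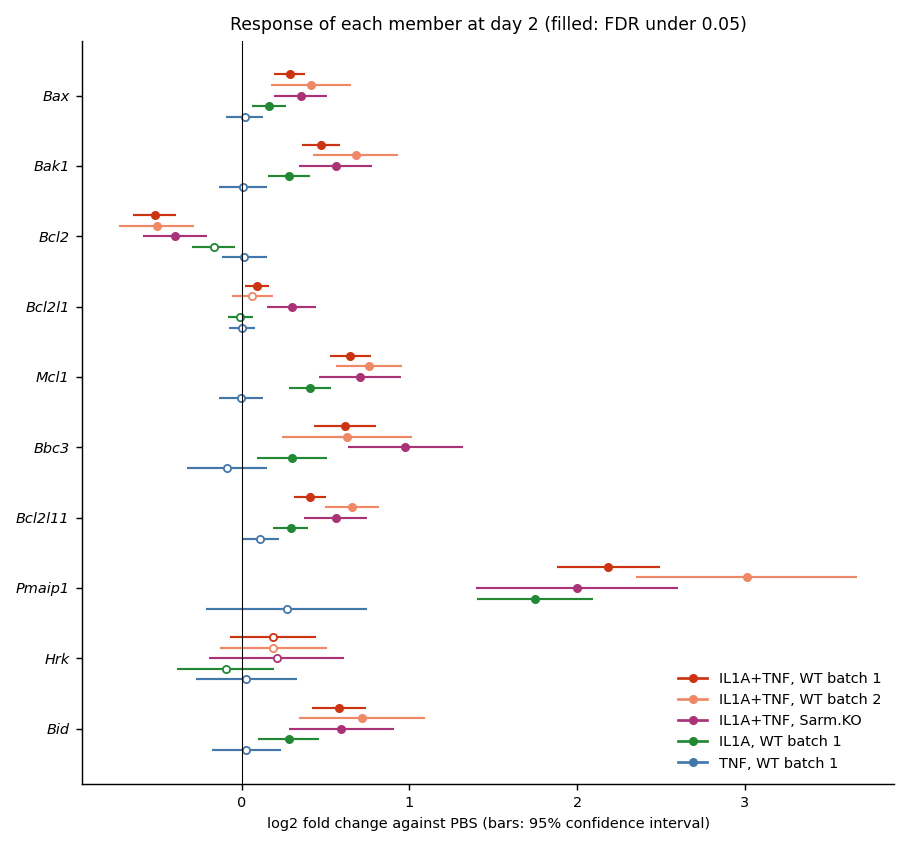
Points give the log2 fold change against PBS for each of the 10 members at day 2, bars the 95% confidence interval, and filled points an adjusted p under 0.05, for IL1A+TNF in WT batch 1, WT batch 2 and Sarm.KO, and for IL1A and TNF in WT batch 1. Pmaip1 lay farthest right with IL1A+TNF (2.19 in batch 1) and with IL1A (1.75), Bcl2 was the member left of 0 with IL1A+TNF, and TNF alone had no filled point.

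For TNF added to IL1A, 2 members were called by the direct test, where 10.2% of genes were called, 5.56% higher and 4.68% lower (54.3% of the calls higher, or 43% with upper quartile scaling). At an unadjusted p under 0.05 (limma) there were 8 members, and 4804 of all 19548 genes. edgeR called 2 members and DESeq2 4. Bcl2 was lower in IL1A+TNF than in IL1A retinas (log2 -0.35 ± 0.0812 SE, adjusted p = 0.00263), and Mcl1 was higher (log2 0.24 ± 0.0775, adjusted p = 0.0345). Pmaip1 differed by 0.44 (interval 0.10 to 0.78, adjusted p = 0.0861) and Bid by 0.30 (adjusted p = 0.0538), and neither passed. The interaction of both cytokines, the part of the combined effect beyond the sum of the single effects, was called for Bcl2 alone among members (log2 -0.37 ± 0.105, adjusted p = 0.0372), where 3.52% of genes were called, 1.74% higher and 1.78% lower (49.4% of the calls higher, or 38.3% with upper quartile scaling). With mouse as a fixed factor neither direct difference nor the interaction passed, and the Bcl2 interaction was -0.15 (adjusted p = 0.649). No mouse received both IL1A and IL1A+TNF, so that setting compares them only through PBS fellow eyes. Under it 0 of all genes passed in either test, so the lost calls do not set these members apart from other genes. Against TNF alone, 8 members were called (7 higher, Bcl2 lower), where 39.1% of genes were called (20% higher and 19% lower).

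The second batch repeated the WT comparison in other mice. Again 7 members were higher and Bcl2 was lower, where 37.1% of genes were called (19.3% higher and 17.8% lower), and Bcl2l1 (log2 0.06) and Hrk (0.19) did not pass. The Bbc3 call was lost without PBS replicate 4 (log2 0.54, adjusted p = 0.0573, limma). It was also lost with the Sarm.KO retinas of batch 2 in the fit (0.60, 0.0895). Pmaip1 was 1.28, 1.098, 1.34, 0.906 and 0.773 CPM in the 5 PBS retinas and 6.55 to 14.0 CPM (median 8.45) in the 6 IL1A+TNF retinas, 8.06-fold higher (adjusted p = 4.78e-05). Bcl2 was 33, 37.8, 37.8, 33.4 and 26.95 CPM with PBS and 18.8 to 27.8 CPM (median 23.99) with IL1A+TNF (0.703 times, adjusted p = 0.00307), and the groups overlapped in 1 retina. Bak1, Mcl1, Bcl2l11, Pmaip1 and Bid had no overlap between groups, which held for 21.2% of genes in this small comparison. Leukocyte marker sums had medians of 50.2 and 319 CPM. With both batches in the fit, 7 members were higher and Bcl2 was lower, where 55.2% of genes were called (28% higher and 27.3% lower), and Bcl2l1 had an adjusted p of 0.0647.

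In Sarm.KO retinas, fitted with the WT day 2 retinas of both batches and batch as a term, IL1A+TNF left 8 members higher and Bcl2 lower, where 43.9% of genes were called (21.6% higher and 22.3% lower). Pmaip1 rose 4.00-fold (adjusted p = 4.47e-07), Bbc3 1.97-fold, Mcl1 1.63-fold, Bid 1.51-fold, Bak1 and Bcl2l11 both 1.47-fold, Bax 1.28-fold and Bcl2l1 1.23-fold, and Bcl2 fell to 0.760 times. Pmaip1 was 1.67, 6.76, 7.82, 8.04, 6.49 and 4.68 CPM in replicates 1 to 6, and 0.941 to 2.11 CPM with PBS (median 1.32). In 5 of 6 mice it was higher in the treated eye, and replicate 1 was the exception. Without replicates 4 and 5, the changes of Bcl2l1 (log2 0.07, adjusted p = 0.524), Bid (0.19, 0.412) and Bax (0.23, 0.0508) no longer passed. Without replicates 1, 4 and 5, Bcl2l1 (log2 0.08, adjusted p = 0.421) and Bid (0.23, 0.342) did not pass. Genes called numbered 8839 with all 6 retinas, 2629 without replicates 4 and 5, and 3676 without 1, 4 and 5.

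Loss of Sarm1 called no member in PBS retinas (limma), where 0.0397% of genes were called, with 0 members at an unadjusted p under 0.05 and 0 called by edgeR or DESeq2. With IL1A+TNF, 2 members differed from WT, where 15.6% of genes were called (4.44% higher and 11.1% lower). Bcl2l1 was higher (log2 0.21 ± 0.0674 SE, adjusted p = 0.0232) and Pmaip1 lower (log2 -0.59 ± 0.208, adjusted p = 0.0397). Bcl2l1 was 61.0, 61.7, 63.9, 95.1, 98.5 and 59.5 CPM in replicates 1 to 6 of Sarm.KO, and 55.2 to 69.6 CPM (median 61.5) in WT of batch 2, so that replicates 4 and 5 alone lay above the WT range. Without them the Bcl2l1 difference was -0.01 (adjusted p = 0.945), the Pmaip1 difference was -0.78 (adjusted p = 0.0801), and no member was called. Without replicate 1 alone the Pmaip1 difference was -0.31 (adjusted p = 0.256), and without replicates 1, 4 and 5 it was -0.34 (0.598). The Pmaip1 call was also lost without the filter on low counts (0.0532), in edgeR (log2 -0.43, adjusted p = 0.322) and DESeq2 (-0.43, 0.28), and without WT IL1A+TNF replicate 1, 2 or 3 of batch 2 (0.104, 0.0693 and 0.0584). The Bcl2l1 call was also lost without Sarm.KO replicate 4 (log2 0.13, adjusted p = 0.291) or 5 (0.12, 0.26) alone, and without WT replicate 4 or 5 (0.0631 and 0.0617). Within batch 2 alone neither passed (Bcl2l1 0.22, adjusted p = 0.288, and Pmaip1 -0.72, adjusted p = 0.225). No member was called for a difference in response between genotypes (limma), where 8.72% of genes were called (19.2% of them higher, or 30.7% with upper quartile scaling). The estimates were 0.21 for Bcl2l1 (adjusted p = 0.101) and -0.41 for Pmaip1 (interval -1.09 to 0.28). At an unadjusted p under 0.05 there was 1 member, Bcl2l1, and 4631 of all 20154 genes, and edgeR and DESeq2 called 0 members each. Over all genes 1757 were called, against 0 without Sarm.KO replicates 4 and 5. Bcl2l1 passed with upper quartile scaling (0.24, adjusted p = 0.0399) and without Sarm.KO IL1A+TNF replicate 1, 2, 3 or 6 (adjusted p at most 0.0481). It was -0.01 without replicates 4 and 5 (adjusted p = 0.951).

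**Figure D3:**
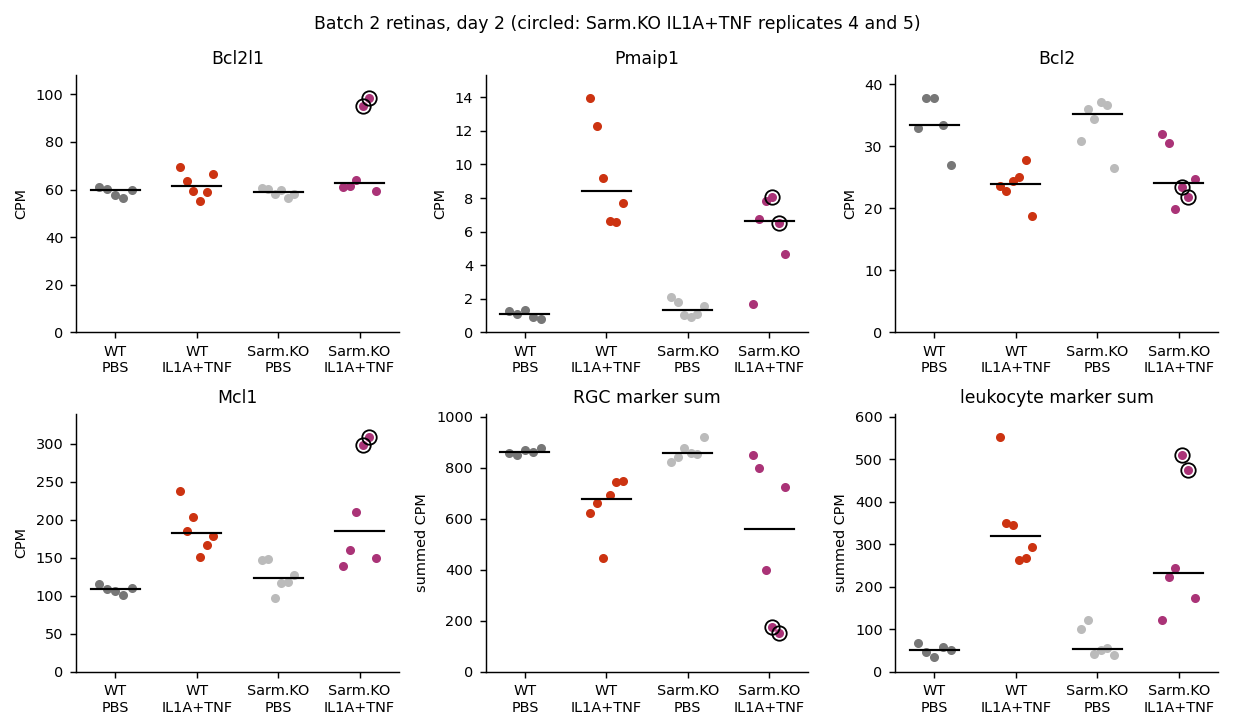
Each point is 1 batch 2 retina at day 2, with CPM of 4 members and the summed CPM of RGC and leukocyte markers on vertical axes from 0, black lines at medians, and Sarm.KO IL1A+TNF replicates 4 and 5 circled. The circled retinas hold the highest Bcl2l1 (95.1 and 98.5 CPM) and Mcl1 and the lowest RGC marker sums (175 and 152 CPM).

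At later times TNF alone called no member at day 14 or day 35 (limma), where 0% of genes were called in each. At an unadjusted p under 0.05 there were 0 members at day 14 and 2 at day 35 (Bcl2 and Pmaip1), and edgeR and DESeq2 called 0 at both days. At day 35 Pmaip1 was 0.501 to 1.22 CPM (median 0.768) with PBS and 0.694 to 1.84 CPM (median 1.13) with TNF, overlapping ranges (log2 0.60, interval 0.10 to 1.09, adjusted p = 0.879). The TNF effect at day 14 or day 35 did not differ from that at day 2 for any member in limma, edgeR or DESeq2 (0% of genes in limma), and 0 members had an unadjusted p under 0.05 for that difference. Bcl2 at day 35 was 35.3 to 38.7 CPM with PBS and 32.9 to 37.6 CPM with TNF (log2 -0.08, adjusted p = 0.879). Of 6 mice with both eyes at day 35, Bcl2 was lower in the TNF eye in 6 (log2 -0.17 to -0.02) and Pmaip1 higher in 5 (-0.65 to 0.98). At day 14, Bcl2l11 was higher in the TNF eye in 4 of 4 mice (log2 0.03 to 0.18). The share of all genes with such one-sided pairs was not counted, so these pairs are descriptions and no sign of an effect.

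PBS retinas themselves changed with time after injection. Between day 14 and day 2, 5 members were called, where 17.5% of genes were (8.19% higher and 9.29% lower): Bcl2 (log2 0.38) and Bcl2l11 (0.20) were higher at day 14, and Pmaip1 (-0.94), Mcl1 (-0.38) and Bak1 (-0.24) were lower. At day 35 against day 2, 4 members were called, where 32.8% of genes were (16% higher and 16.8% lower), with Bcl2 higher (0.41) and Bid (-0.43), Mcl1 (-0.35) and Bak1 (-0.20) lower. Bcl2 was 31.03 to 40.97 CPM (median 36.5) at day 14, against 22.6 to 37.4 CPM at day 2. Some marker sums were lower at day 14 than at day 2 and others were higher. PBS medians at day 2 and day 14 were 49.6 and 18.1 CPM for leukocytes and 15.7 and 1.49 for neutrophils. They were 125.9 and 57.65 CPM for astrocytes and 87.5 and 54.9 for microglia. On the higher side were rods (42130 and 50840 CPM), cones (989.7 and 1172) and RGCs (890.2 and 985.9). Bipolar cells (1300 and 1453 CPM), amacrine cells (764.3 and 833.1) and Muller glia (3864 and 4646) were higher too. The part of these cells in the members' changes was not tested. Age, time after injection and the mice differ together here and cannot be told apart. Sex called no member in limma, edgeR or DESeq2 (0.363% of genes in limma), with 2 members, Bbc3 and Pmaip1, at an unadjusted p under 0.05. The treatment of the fellow eye called no member among day 2 PBS retinas (limma F test, 0% of genes), and 0 members had an unadjusted p under 0.05.

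**Figure D4:**
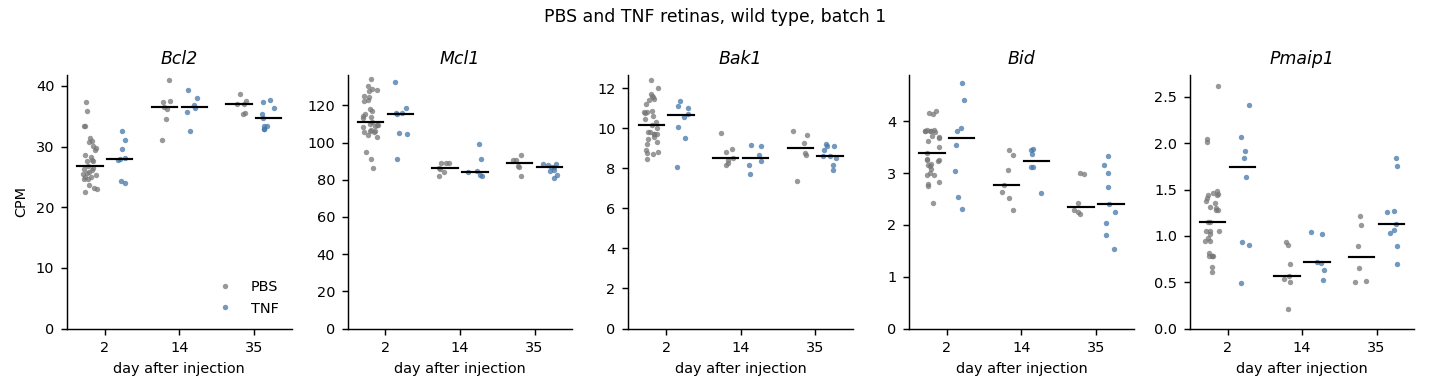
Points are WT batch 1 retinas with PBS (grey) or TNF (blue) at days 2, 14 and 35 (horizontal axis), the vertical axes give CPM from 0 for 5 members, and black lines are medians. Bcl2 had PBS medians of 26.8, 36.5 and 37.0 CPM, while Mcl1 had 111, 86.1 and 89.1 CPM, and TNF and PBS points overlapped at every day.

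Other genes of the pathway were taken from lists of relatives, downstream genes and upstream genes. Among 11 other family members tested with IL1A+TNF in WT batch 1, 4 rose and 4 fell, a median of -0.04, where 50.5% of all genes were called (25% higher and 25.5% lower). The counts of the next 3 lists stand against the same shares. Bcl2a1b, a guardian of blood cells, rose by 2.21 on the log2 scale, from a median of 0.166 to 0.910 CPM, though reads of its near-identical copies may be split among them, and Bik, a BH3-only gene, by 1.03, while the mitophagy receptor Bnip3 (-0.88), the pore former relative Bok (-0.26) and the guardian Bcl2l2 (-0.15) fell. Of 17 apoptosome and caspase genes 6 rose and 3 fell. Birc3, an inhibitor of apoptosis induced through NF-kB, rose by 1.77, and Apaf1, the apoptosome scaffold, by 0.32, while the caspase inhibitor Xiap fell (-0.78). On the path from death receptors to Bid, 7 of 8 genes rose, led by Casp8, which cleaves BID (1.15), Ripk1 (0.98), Fas (0.92) and the TNF receptor Tnfrsf1a (0.91). Of 16 genes upstream of BH3-only genes 6 rose and 8 fell, with Atf3 (1.39) and Jun (0.68) higher and Trp63 (-0.79) lower.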

How the data were processed

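RNA of 109 mouse retinas was sequenced in read pairs. The authors aligned them to mm10 with STAR 2.7.9a and summed read pairs per gene with featureCounts (Subread 2.0.1), and the deposited table holds these raw counts; the annotation release and the strand setting are not given in the sources used here. Groups came from the labels for genotype, treatment, time and batch. Members and gene lists were chosen with earlier results of these data known. Genes of low count were removed with edgeR 4.0.16 (filterByExpr, minimum count 10), libraries were scaled by TMM, and limma 3.58.1 voom (R 4.3.3, statmod 1.5.0) was fitted with sex as a covariate, batch where both entered, and mouse as a block through duplicateCorrelation, with Benjamini-Hochberg adjustment over all genes tested. Pairing is by design, since eyes of the same mouse carry its number in the labels, and the estimated correlation within a mouse was 0.0515 at day 2 in batch 1 and 0.00525 with both batches. CPM are TMM-scaled, and RPKM divide them by union exon length (GENCODE, GRCm38). Alternatives were edgeR's quasi-likelihood test, DESeq2 1.42.0, other scalings, filters and mouse terms, batch 2 alone, and leaving out retinas. The 10 members were tested in every comparison and could be named in any. Any gene of the lists of relatives and of apoptosome and caspase genes could be named, and those printed are a choice among them. From the death receptor and upstream lists, naming was limited to the called genes of largest change. For likeness it was limited to the highest Pearson r of log2 CPM. Totals of 30014757 to 79064488 counts limit the rare members most. The script was tested on simulated data.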

Additional observations from a re-analysis of the deposited data

Results flagged for a closer look

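The CPM of each member was checked in each group of 4 to 10 retinas, 110 checks in all. In 3 of these checks, 1 retina lay farther from its group than Dixon's 95% limit. The checks share retinas and are not independent, so their count cannot be set against a chance rate. In WT IL1A+TNF retinas of batch 1, replicate 2 was the highest for Bak1 (21.7 CPM, a gap of 0.707 of the group's range) and for Bcl2l1 (82.4 CPM, 0.622). That retina also had the highest neutrophil (751 CPM), leukocyte (494) and monocyte (1220) marker sums of its group. Its RGC (651 CPM), bipolar (713) and cone (223) sums were the lowest of the group. In WT IL1A retinas, replicate 8 was the highest for Bak1 (15.2 CPM, 0.537). The effect of TNF on Bcl2 differed between eyes with and without IL1A by the interaction term (log2 difference -0.366, adjusted p = 0.0372 in limma).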

How the results depend on the processing

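Log2 fold changes of all members were followed for IL1A, for IL1A+TNF in WT of each batch and for IL1A+TNF in Sarm.KO. In the other comparisons only called changes and a few chosen ones were followed, so most uncalled changes there were left out. Of the values followed, under alternatives other than leaving out 1 retina, 674 kept direction and side of the threshold. A further 24 lost the call, 4 gained it and 4 reversed. All 4 reversals were Bcl2l1 without Sarm.KO IL1A+TNF replicates 4 and 5 (-0.01168 against WT and -0.01428 for genotype by treatment) or without 1, 4 and 5 (-0.0114 and -0.0112), settings chosen after seeing the data. Leaving out 1 retina moved Bcl2l1 with IL1A between -0.01955 and 0.006558, reversing it without replicate 4 or 8. It moved the count of members called between 4 and 8 for IL1A (4 without replicate 8), 0 and 2 for Sarm.KO against WT with IL1A+TNF (0 without Sarm.KO replicate 4 or 5), and 0 and 2 for genotype by treatment (2 without Sarm.KO replicate 1).

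The replicate block mattered in 3 counts. With mouse as a fixed factor, 4 members were called for IL1A, 0 for IL1A+TNF against IL1A and 0 for the interaction, while the limma fit with no replicate block changed none of these counts by over 1.5 times. DESeq2 called 4 for IL1A+TNF against IL1A, and 0 members passed for the interaction without a filter on low counts (Bcl2 adjusted p = 0.0553). Sarm.KO against WT with IL1A+TNF had 1 member by edgeR, DESeq2 or without the filter, and 0 in batch 2 alone or without replicates 4 and 5 or 1, 4 and 5. Genotype by treatment had 1 with upper quartile scaling (Bcl2l1). The causes were not tested.

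Counts over all genes moved too. TNF at day 2 called 96 genes in limma, 242 in edgeR, 268 in DESeq2, 21 with mouse fixed and 8 to 419 without 1 retina. The interaction called 688, against 1118 in DESeq2, 424 unfiltered and 0 with mouse fixed. Sarm.KO against WT with IL1A+TNF called 3135, against 1195 (edgeR), 1595 (DESeq2), 131 (batch 2 alone), 273 (without replicates 4 and 5) and 12 (without 1, 4 and 5). Genotype by treatment called 1757, against 181, 430, 0, 0 and 0, and 24 with mouse fixed. With mouse fixed, IL1A called 2111, IL1A+TNF against IL1A 0 and against TNF 2756, and TNF at day 35 5. The Sarm.KO response called 8839, against 2629 and 3676 in the same left-out settings. The WT response called 11135 with both batches and 4069 in batch 2 alone with Sarm.KO retinas in the fit. WT retinas of batch 2 fitted by themselves called 7015. Sarm.KO against WT with PBS called 8, or 2 in batch 2 alone, and the change in the TNF effect to day 14 called 0, or 1 in DESeq2. Low counts limit Pmaip1, Hrk, Bbc3 and Bid most.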

Other observations

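Bax, the pore former, was nearest in its pattern over 58 day 2 retinas to Ppp4c (r = 0.827), Rcc2 (0.816) and the p53 target Cdkn1a (0.815). Bid was nearest to the lymphotoxin receptor gene Ltbr (0.807), Elf1 (0.799) and Mvp (0.796), and Bcl2 to Lima1 (0.875), Glb1l3 (0.874) and Hdc (0.872). These retinas share treatments, so the values are descriptions.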
